A study of Mus musculus with 6 samples.

Results

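Foxm1, Mybl1, Mybl2, Lin9, Lin37, Lin52 and Lin54 encode transcription factors and scaffold proteins of the G2 and M phases of the cell cycle, and their RNA was compared between Rnf40+/+ and Rnf40-/- MEFs. The 7 genes were chosen by symbol, as the activators and the MuvB core of G2/M transcription. All 7 were among the 29955 genes of the deposited table, and all 7 had enough reads to be among the 16378 genes tested. In Rnf40-/- MEFs 3 of the 7 were lower, namely Foxm1, Mybl2 and Lin9, and none was higher. The other 4, Mybl1, Lin37, Lin52 and Lin54, did not pass the test in either direction.

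MEFs are primary fibroblasts grown from mouse embryos, and RNF40 is a ubiquitin ligase that, with RNF20, attaches ubiquitin to histone H2B. RNA was sequenced from 3 libraries labelled Rnf40+/+ and 3 labelled Rnf40-/-, all from cells at passage 3. In the knockout model exons 3 and 4 of Rnf40 lie between loxP sites, and a Cre recombinase that is activated by tamoxifen is expressed from the Rosa26 locus, which is active in all tissues. For the knockout the cells were given 250 nM 4-hydroxytamoxifen for 5 days and then grown for 3 days without it. By the study's methods, MEFs of the inducible line came from embryos that carried this Cre and were homozygous for the loxP allele. Whether the Rnf40+/+ libraries came from untreated cells of that line, and whether they received 4-hydroxytamoxifen, is not given in the sources used here, so deletion and treatment cannot be told apart. The labels do not say whether the libraries of a group came from separate embryos or cultures, so the p-values measure the spread between these libraries, which may be technical.

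FOXM1 is a forkhead factor, and MYBL1 (A-MYB) and MYBL2 (B-MYB) are members of the MYB family. LIN9, LIN37, LIN52 and LIN54 form, with RBBP4, the MuvB core, which changes partners over the cell cycle. In resting cells it binds the pocket protein p130 or p107, an E2F and a DP protein to form DREAM, a repressor of cell cycle genes, and in cycling cells it binds MYBL2 and then FOXM1 to activate genes of mitosis. LIN54 contacts DNA at the cell cycle genes homology region (CHR), while the E2F and DP subunits contact E2F sites.

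Values are given as normalized counts, the reads of a gene divided by 1 size factor per library as the authors deposited them. The libraries held between 17053436 and 26344170 reads on genes, and 3 reads, taken as the limit of detection, were worth between 2.40 and 3.58 normalized counts. The test was limma, run on the log2 of the normalized count plus 1, with Benjamini-Hochberg adjustment over all genes tested and a threshold of 0.05, and all fold changes below are on that log2 scale with their standard error (SE). By this rule 24.1% of all genes tested were lower and 23.3% were higher in Rnf40-/- MEFs, and the median log2 fold change of all genes was -0.0035. The targeted gene, Rnf40, was at 1278, 1195 and 1096 in Rnf40+/+ and at 439, 519 and 487 in Rnf40-/- libraries. All 12 fibroblast markers examined were above the limit of detection in every library, and 10 of them were lower in Rnf40-/- MEFs, with a summed level of 712608 to 789930 in Rnf40+/+ and 419366 to 422289 in Rnf40-/- libraries. Markers of other cells were also read. The sum of 4 endothelial markers was 46.9 to 143 in Rnf40+/+ and 173 to 265 in Rnf40-/- libraries, with 3 higher. For 10 macrophage markers, all above the limit in every library, the sums were 6174, 6574 and 11514 in Rnf40+/+ and 3883 to 4323 in Rnf40-/- libraries, with 4 lower and 2 higher. The sum of 6 epithelial markers was 33.7 to 107 and 39.7 to 64.2, with none of the 3 tested called. Single libraries set the upper ends, namely Rnf40+/+ replicate 3 for macrophage markers, and Rnf40+/+ replicate 1 for endothelial and epithelial markers, whose next Rnf40+/+ values were 53.5 and 66.3. In replicate 1 this came mainly from a single gene of each list. Tek was at 114.6, against 11.2 and 16.0 in replicates 2 and 3, and Krt8 at 58.5, against 1.02 and 9.58. Kdr was lowest in replicate 1 (21.5, against 26.5 and 34.3). Rnf40+/+ replicate 3 also stood apart from its group over all genes, with a chi-square per gene of 28.8 and 25.9 against the other Rnf40+/+ libraries, which differed from each other by 8.35. Without it Foxm1, Mybl2 and Lin9 were still called, at log2 fold changes of -0.89, -0.95 and -0.98, and no other member was. The part of these differences in the results below was not tested, and in bulk RNA fewer cycling cells and less RNA per cell cannot be told apart.

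The promoter sequences of 4 genes are shown because the DNA letters read by MuvB, its E2F partners and the CCAAT-binding factor NF-Y can be looked for in them. Mybl2 was lower and Lin37 was not called, while Ccnb2 (cyclin B2) and Cdc20 (an activator of the anaphase-promoting complex, APC/C) are targets that were both lower. Each line holds the 250 bases before the annotated start, 5′ to 3′ on the strand of the gene, from RefSeq (GRCm38.p6), with the mm9 position found by exact match. For Lin37 and Cdc20 the RefSeq start lies inside the gene as GENCODE annotates it. Capitals mark the CHR (TTTGAA or TTCGAA), the CCAAT box (CCAAT), and the E2F core (GGCGGGA), each searched on both strands, so that TTCAAA also counts as a CHR, ATTGG as a CCAAT box and TCCCGCC as an E2F core. No match of one motif can hold another. The forkhead core TAAACA was searched in the same way, and none was found in these 4 sequences.
Mybl2, chr2:162880121-162880370, plus strand: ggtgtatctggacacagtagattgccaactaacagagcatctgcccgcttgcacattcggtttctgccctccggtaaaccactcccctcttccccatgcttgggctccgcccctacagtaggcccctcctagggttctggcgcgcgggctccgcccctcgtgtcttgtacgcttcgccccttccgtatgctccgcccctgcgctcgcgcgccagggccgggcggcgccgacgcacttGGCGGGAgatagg
Lin37, chr7:31344666-31344915, minus strand: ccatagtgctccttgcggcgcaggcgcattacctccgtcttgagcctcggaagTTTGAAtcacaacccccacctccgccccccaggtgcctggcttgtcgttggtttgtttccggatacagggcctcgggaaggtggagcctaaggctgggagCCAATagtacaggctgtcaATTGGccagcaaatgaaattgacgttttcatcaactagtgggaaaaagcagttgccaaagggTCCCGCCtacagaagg
Ccnb2, chr9:70269362-70269611, minus strand: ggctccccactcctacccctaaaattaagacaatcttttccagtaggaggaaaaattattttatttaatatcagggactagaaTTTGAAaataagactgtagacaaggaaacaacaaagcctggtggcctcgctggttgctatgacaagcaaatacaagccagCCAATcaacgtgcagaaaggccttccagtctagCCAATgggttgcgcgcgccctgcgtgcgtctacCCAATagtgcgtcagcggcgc
Cdc20, chr4:118109949-118110198, minus strand: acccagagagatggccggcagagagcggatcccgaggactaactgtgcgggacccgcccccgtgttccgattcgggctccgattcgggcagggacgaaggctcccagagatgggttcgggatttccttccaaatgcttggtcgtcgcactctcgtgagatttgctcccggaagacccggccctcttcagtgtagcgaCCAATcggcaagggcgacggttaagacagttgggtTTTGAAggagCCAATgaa

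In the Mybl2 promoter the only match was an E2F core from base -13 to -7, counted from the start. Lin37 had an E2F core from -16 to -10, a CCAAT box at -97 to -93, a second one on the other strand at -78 to -74, and a CHR at -197 to -192. Lin52 had E2F cores at -223 to -217 and -25 to -19, and a CCAAT box at -249 to -245. Lin54 had a CHR in both of its listed promoters, and 1 of them held a CCAAT box at -229 to -225. Among the members that could be matched, an E2F core was therefore present in the gene that was lower, Mybl2, as well as in Lin37, Lin52 and 1 promoter of Lin54, which were not called. An E2F core was found in 11.3% of the 32851 promoters used, all of the same length, from 250 bases before to 50 after the start. Promoters on chromosome 18 were left out. The table held promoters of 4 of the 7 genes, and those of Foxm1, Mybl1 and Lin9 were not used here. The motifs were chosen after the Mybl2 promoter had been read, and a match is a description of the letters and not evidence of binding.

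Among the activators, Foxm1 and Mybl2 were lower in Rnf40-/- MEFs and Mybl1 was not. Foxm1 (ENSMUSG00000001517, 8 exons) occupies bases 128312985 to 128325911 of chromosome 6 in mm9, the build of all gene positions given here, on the plus strand. The Rnf40+/+ libraries had 489.6, 389 and 340.2 normalized counts of it, and the Rnf40-/- libraries 280.4, 196 and 233. Every Rnf40-/- library thus lay below every Rnf40+/+ library. The means were 406 ± 76.3 and 237 ± 42.2 (SD, n = 3 libraries each), and 58.3% of the Rnf40+/+ mean remained. Its log2 fold change was -0.78 (SE 0.16, 95% confidence interval -1.12 to -0.44, adjusted p = 0.00149, limma with Benjamini-Hochberg adjustment). Reads shared with 4933413G19Rik, which overlaps 144 exon bases of Foxm1 on the same strand, could go to either gene, but that gene stayed between 1.04 and 7.14 normalized counts in all libraries.

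**Figure D1:**
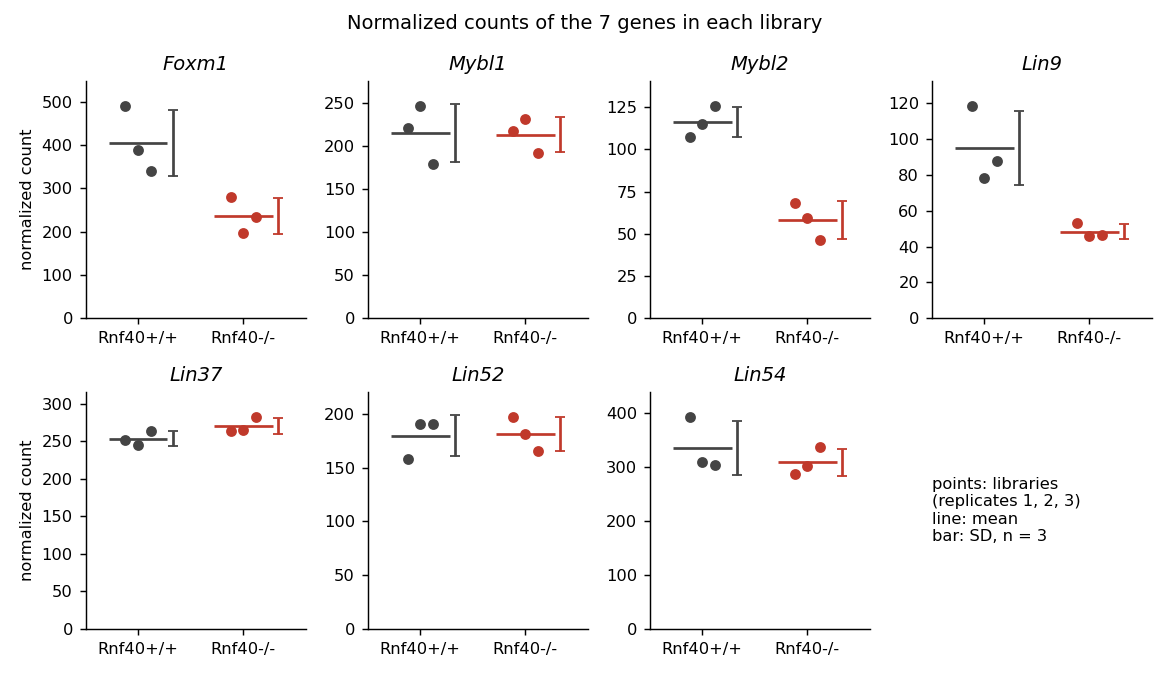
Normalized counts (vertical axis, from 0) of each of the 7 genes in the 3 Rnf40+/+ (grey) and 3 Rnf40-/- (red) libraries, with the mean as a line and the SD as a bar (n = 3). The groups do not overlap for Foxm1, Mybl2 and Lin9, whose Rnf40-/- libraries all lie lower, and they overlap for the other 4 genes.

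Mybl2 (ENSMUSG00000017861, 14 exons, plus strand of chromosome 2 from 162880423 to 162910424) had 107, 115 and 125 normalized counts in Rnf40+/+ libraries. In Rnf40-/- libraries it had 68.3, 59.5 and 46.3. The highest Rnf40-/- value was well below the lowest Rnf40+/+ value, and the means were 116.0 ± 8.97 and 58.0 ± 11.1 (SD, n = 3 libraries each). Mybl2 had a log2 fold change of -1.002 (SE 0.19, 95% confidence interval -1.42 to -0.58, adjusted p = 0.0011, limma). A stretch of 93 nucleotides of Mybl2 is at least 95% identical to 1110018J18Rik, which had a log2 fold change of 0.24 (adjusted p = 0.182, limma). With 171 to 248 normalized counts, 1110018J18Rik was above Mybl2 in every library. Reads that the counting placed on either of the pair are uncertain.

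Mybl1 (ENSMUSG00000025912, 16 exons, minus strand of chromosome 1 from 9657496 to 9690290) is known best for its role in meiosis in the male germ line. It was at 221, 246 and 179 in Rnf40+/+ and at 217, 231 and 192 in Rnf40-/- libraries. The groups overlapped throughout, with means of 215 ± 33.8 and 213 ± 19.8 (SD, n = 3 libraries each). The log2 fold change was -0.01 and its 95% confidence interval, from -0.31 to 0.30 (adjusted p = 0.979, limma), bounds the difference that these libraries allow. Its sign turned without Rnf40+/+ replicate 1 (0.02), Rnf40+/+ replicate 2 (0.10) or Rnf40-/- replicate 3 (0.07). Myb, the third gene of the family, was too low to be tested, with 0.799 to 5.97 normalized counts in the 6 libraries.

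In the MuvB core 1 gene of 4 was lower, a share near the 24.1% of all genes tested. Lin9 (ENSMUSG00000058729, 15 exons, plus strand of chromosome 1 from 182571498 to 182620816) encodes a subunit through which MYBL2 contacts the complex. Its normalized counts were 118, 78.5 and 87.8 in Rnf40+/+ and 53.02, 45.9 and 46.3 in Rnf40-/- libraries. Again no Rnf40-/- library reached the lowest Rnf40+/+ library, while the Rnf40+/+ libraries were spread more widely, with replicate 1 the highest. From a mean of 94.9 ± 20.8 to one of 48.4 ± 4.00 (SD, n = 3 libraries each), 51.0% of the Rnf40+/+ level remained. The log2 fold change of Lin9 was -0.94 (SE 0.21, 95% confidence interval -1.39 to -0.48, adjusted p = 0.00285, limma), and without Rnf40+/+ replicate 1 it was -0.77 and still called.

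Lin37 (ENSMUSG00000036845, 9 exons, minus strand of chromosome 7 from 31340460 to 31344857), a subunit needed for repression by DREAM, was at 252, 245 and 264 in Rnf40+/+ libraries and 264, 265 and 282 in Rnf40-/- libraries. Its Rnf40-/- values were at the upper end of the Rnf40+/+ range or above it, and the log2 fold change was 0.09 (SE 0.10, 95% confidence interval -0.13 to 0.32, adjusted p = 0.493, limma). Lin37 and Hspb6, on the opposite strand, share 3 exon bases. Lin52 (ENSMUSG00000085793, 6 exons, plus strand of chromosome 12 from 85792458 to 85872483), the subunit whose phosphorylation lets MuvB bind a pocket protein, was at 158, 191 and 191 against 197, 182 and 165. The ranges of Lin52 lay over each other, and its log2 fold change was 0.01 (SE 0.14, 95% confidence interval -0.28 to 0.31, adjusted p = 0.944, limma). Without Rnf40+/+ replicate 1 it was -0.08 and without Rnf40-/- replicate 1 it was -0.05.

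Lin54 (ENSMUSG00000035310, 13 exons, minus strand of chromosome 5 from 100870937 to 100929658), the DNA-binding subunit, was at 393, 310.0 and 304 in Rnf40+/+ and 288, 303 and 337 in Rnf40-/- libraries. Replicate 1 of Rnf40+/+ was higher than all others and the remaining libraries of both groups were mixed. The log2 fold change of -0.11 (SE 0.12, 95% confidence interval -0.38 to 0.15, adjusted p = 0.478, limma) became 0.0061 without Rnf40+/+ replicate 1. The intervals of Lin37, Lin52 and Lin54 lie above the estimate for Lin9, but whether the changes of these genes differ was not tested.

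Of the 7 genes, 3 (42.9%) were called lower, beside 24.1% of all genes tested, and none was called higher, beside 23.3%. In 3 of the 7 every Rnf40-/- library lay below every Rnf40+/+ library, which was the case for 28.7% of all genes tested, and in none did every Rnf40-/- library lie above, as it did for 27.8%. With 7 genes these shares are a description. The median log2 fold change of the 7 was -0.11. The 3 calls were kept in all alternative fits, including those that left out each library in turn, where the log2 fold change ran from -0.91 to -0.63 for Foxm1, from -1.13 to -0.85 for Mybl2 and from -1.06 to -0.77 for Lin9.

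**Figure D2:**
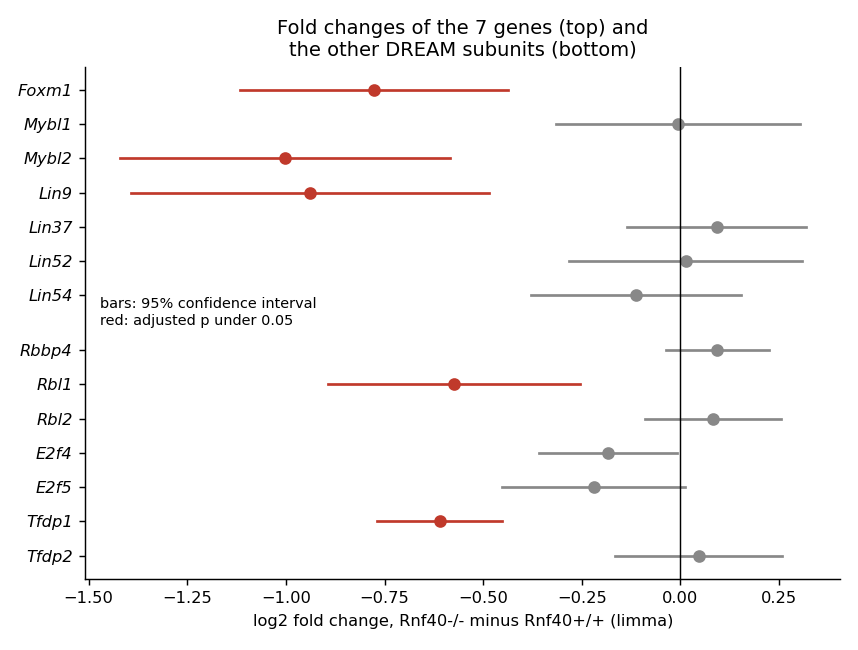
Log2 fold change (horizontal axis, Rnf40-/- minus Rnf40+/+, limma) of the 7 genes and, below them, of the other DREAM subunits, with 95% confidence intervals as bars and adjusted p under 0.05 in red. Foxm1, Mybl2 and Lin9 lie between -1.002 and -0.78, Rbl1 and Tfdp1 near -0.6, and all other genes are closer to 0.

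Levels of different genes were compared per kilobase of merged exons. In Rnf40+/+ MEFs the mean was highest for Lin37, at 182.8 normalized counts per kilobase, then Lin52 (83.8), Foxm1 (73.9), Lin54 (57.7), Mybl1 (40.0), Lin9 (29.6) and Mybl2 (25.0). The ranges over the 3 libraries of neighbours in this order overlapped for Lin52 and Foxm1 (73.5 to 89.0 and 61.9 to 89.1), for Foxm1 and Lin54, for Mybl1 and Lin9 and for Lin9 and Mybl2. In Rnf40-/- MEFs the order was Lin37 (194.9), Lin52 (84.5), Lin54 (53.1), Foxm1 (43.0), Mybl1 (39.7), Lin9 (15.1) and Mybl2 (12.5). Here the ranges overlapped for Lin54 and Foxm1 (49.4 to 57.9 and 35.7 to 51.0), for Foxm1 and Mybl1 and for Lin9 and Mybl2. Foxm1 and Lin54 traded places between the groups. With the length of the longest coding transcript Foxm1 stood above Lin52 in Rnf40+/+ MEFs (92.3 against 83.8). The lowest level per length in both groups was that of Mybl2.

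Ratios between genes within a library do not depend on the size factor. The log2 ratio of Lin9 to Lin54 was -1.73, -1.98 and -1.79 in Rnf40+/+ and -2.44, -2.72 and -2.87 in Rnf40-/- libraries, so that Lin9 was lower relative to Lin54 in each Rnf40-/- library. Lin9 was also lower relative to Lin37 (by a mean log2 difference of -1.04) and to Lin52 (-0.97), without overlap. For Mybl2 relative to Mybl1 the ratios were -1.04, -1.09 and -0.51 against -1.67, -1.96 and -2.05, again without overlap. In contrast, the ratio of Mybl2 to Lin9 was -0.14, 0.55 and 0.51 in Rnf40+/+ and 0.37, 0.37 and 0 in Rnf40-/- libraries, and that of Mybl2 to Foxm1 was -2.19, -1.75 and -1.44 against -2.04, -1.72 and -2.33. Mybl2 thus kept overlapping ratios to the other genes that were lower, while the ratio of Foxm1 to Lin9 was not taken. These ratios come from the same values as the fold changes above and are a description with no test of their own.

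**Figure D3:**
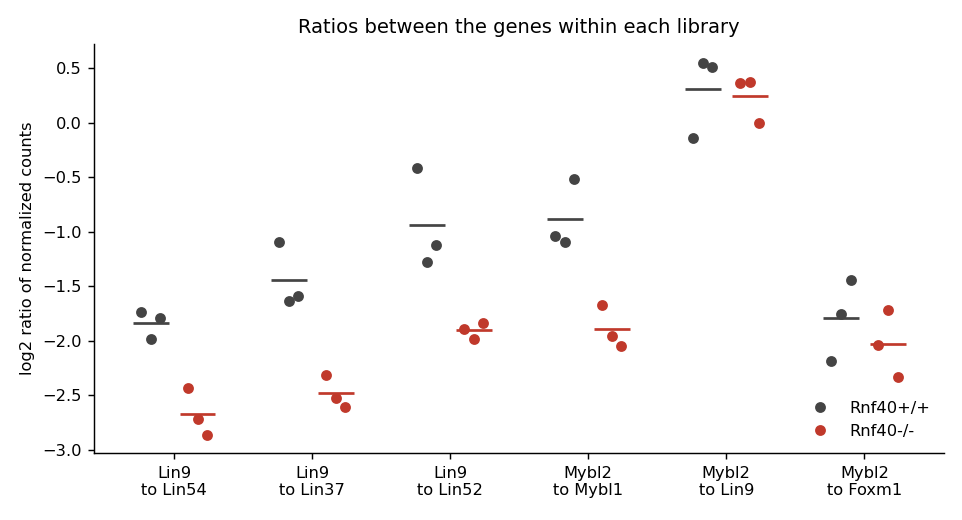
Log2 ratio of the normalized counts of pairs of genes (vertical axis) in the 3 Rnf40+/+ (grey) and 3 Rnf40-/- (red) libraries, with group means as lines. The ratios of Lin9 to Lin54, Lin37 and Lin52 and of Mybl2 to Mybl1 are separate between the groups, while those of Mybl2 to Lin9 and to Foxm1 overlap.

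Genes with patterns most like those of the activators were found by the root mean square distance, over the 6 libraries, of the log2 difference from the Rnf40+/+ mean, among 13045 genes with a mean of at least 50. The nearest to Foxm1 were Ccdc85b (distance 0.0652), Kctd12 (0.0924) and Kazald1 (0.102). Nearest to Mybl2 were AK150559 (0.0886), Hpgd (0.104) and Snhg1 (0.109), and nearest to Mybl1 were Pnpt1 (0.0469), Galnt7 (0.0537) and Naa16 (0.0577). None of these 9 is a member of the lists used here.

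Of the partners with which MuvB forms DREAM, Rbl1 and Tfdp1 were lower. Of 7 other subunits in all, 2 were lower, none was higher and 5 were not called, with a median log2 fold change of -0.18. The share of 28.6% lower is near the 24.1% of all genes tested. Rbl1, which encodes the pocket protein p107, was at 179, 225 and 166 in Rnf40+/+ and 127, 124 and 127 in Rnf40-/- libraries, all of the latter lower (log2 fold change -0.57, SE 0.15, adjusted p = 0.00666, limma). Tfdp1, the main DP partner of E2F proteins, went from 1877 ± 79.1 to 1231 ± 85.3 (SD, n = 3 libraries each), a log2 fold change of -0.61 (SE 0.07, adjusted p = 3.18e-05, limma) with no overlap. Rbl2, which encodes p130, had a log2 fold change of 0.08 (adjusted p = 0.415), Rbbp4 one of 0.09 (adjusted p = 0.223) and Tfdp2 one of 0.05 (adjusted p = 0.718). For the repressor E2Fs the values were -0.18 for E2f4 (adjusted p = 0.0794) and -0.22 for E2f5 (adjusted p = 0.111). E2f4 was called without Rnf40+/+ replicate 2 (-0.25, adjusted p = 0.0264) and E2f5 without Rnf40+/+ replicate 3 (-0.30, adjusted p = 0.0376), and the median of the 7 was -0.12 without Rnf40+/+ replicate 1. Relative to Rbl2, Mybl2 was lower in all Rnf40-/- libraries (log2 ratio -3.52, -3.92 and -4.18) than in any Rnf40+/+ library (-2.87, -2.84 and -2.60). Tesmin, a relative of Lin54 named Mtl5 in older annotation, was too low to be tested, with 3.06 to 13.1 normalized counts.

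Of 17 genes that act on FOXM1, MYBL2 and DREAM, 11 (64.7%) were lower, 2 were higher and 4 were not called. Of all genes tested 24.1% were lower and 23.3% higher. The median log2 fold change of the 17 was -0.71. Among the kinases that phosphorylate FOXM1 or MYBL2, Plk1 (-3.12, SE 0.20), Melk (-2.75, SE 0.25), Cdk1 (-2.05, SE 0.12), Cdk4 (-1.07, SE 0.07) and Cdk2 (-0.93, SE 0.10) were lower. Plk1, for example, went from 381, 255 and 304 to 43.8, 33.4 and 28.3 normalized counts, far below the range of the Rnf40+/+ libraries. Cdk6 was the exception, at 87.2, 71.4 and 87.8 against 143, 118 and 103 (log2 fold change 0.55, SE 0.18, adjusted p = 0.0241, limma). The call of Cdk6 was lost without Rnf40+/+ replicate 2 (0.45, adjusted p = 0.0864), Rnf40-/- replicate 1 (0.43, adjusted p = 0.121) or Rnf40-/- replicate 2 (0.56, adjusted p = 0.0587).

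Of the cyclins that activate cyclin-dependent kinases, Ccna2 (-1.51), Ccnd1 (-0.71) and Ccne1 (-0.69) were lower, and Ccne2 was not called (-0.11, adjusted p = 0.413, limma). Ccnf (-1.36), which encodes cyclin F, a substrate receptor of an SCF ubiquitin ligase, was lower too. The inhibitors of cyclin-dependent kinases Cdkn1b (p27, -0.79) and Cdkn1a (p21, -0.66) were lower as well. Cdkn1a, through which p53 acts on DREAM, went from a mean of 14358 ± 706 to 9111 ± 307 (SD, n = 3 libraries each). Trp53 itself was at -0.08 (adjusted p = 0.318) and Fzr1, an activator of the APC/C, at -0.16 (adjusted p = 0.172). Dyrk1a, the kinase of LIN52, was at -0.13 (adjusted p = 0.205, limma) and was called without Rnf40+/+ replicate 3 (-0.20, adjusted p = 0.0393). Lats2, a kinase upstream of DYRK1A, was higher, at 2545, 2938 and 2404 against 3709.5, 3633 and 3459 (log2 fold change 0.46, SE 0.08, adjusted p = 0.000476, limma).

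The listed targets of MuvB, MYBL2 and FOXM1 were lower almost throughout, most with a log2 fold change below those of Foxm1, Mybl2 and Lin9. Their list, like the others, was written from general knowledge but with earlier results of these data known. Of 48 G2/M target genes 47 (97.9%) were lower, beside 24.1% of all genes tested, and none was higher, beside 23.3%. Their median log2 fold change was -2.31, and 43 of them were below -1, a size that 5.72% of all genes tested passed. Ccna2, Cdk1 and Plk1 stand both in this list and in that of the regulators, so the lists are not independent. Of the 48, 44 had a lower log2 fold change than Foxm1, 43 than Mybl2 and 44 than Lin9. The Rnf40-/- library medians of the list, as log2 difference from the Rnf40+/+ mean, were -2.10, -2.40 and -2.28, and those of Rnf40+/+ libraries were 0.10, -0.10 and -0.01.

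Each role among the targets showed this. Of the cyclins, kinases of the cycle and phosphatases 8 of 8 were lower, led by Ccnb2 (-3.32, SE 0.21) and Ccnb1 (-3.24, SE 0.23), the B-type cyclins of mitosis. Ccnb2 was at 379, 310.0 and 312 in Rnf40+/+ and 42.8, 33.4 and 23.6 in Rnf40-/- libraries, and 9.97% of its mean remained. Of the mitotic kinases and their partners 9 of 10 were lower, with Pbk (-3.72, SE 0.24) and Plk1 (-3.12) first. The gene not called was Bora, an activator of PLK1 through Aurora A that the table lists as 6720463M24Rik (-0.06, SE 0.11, adjusted p = 0.704, limma). All 7 kinesins were lower, led by Kif2c (-3.41) and Kif23 (-2.63), which act at the kinetochore and in cytokinesis.

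Among genes of the centromere and kinetochore 6 of 6 were lower, with Sgol1, which protects cohesion (-3.18), and Cenpa, the centromeric histone H3 (-3.15), first. For the spindle and cytokinesis 8 of 8 were lower, led by Nusap1 (-3.25) and Dlgap5 (-2.61). All 3 genes of the APC/C group were lower, namely Ube2c (-3.12), Cdc20 (-2.68) and Ube2s (-0.77). Cdc20 went from 662, 485 and 616 to 113, 76.2 and 84.98 normalized counts. For chromosome structure 6 of 6 were lower, with Top2a (-3.20) and Mki67 (-2.84) first. The 4 targets whose log2 fold change was not below that of Foxm1 were Bora, Ube2s, Gtse1 (-0.76) and Lmnb1 (-0.72), named here after their values were seen.

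**Figure D4:**
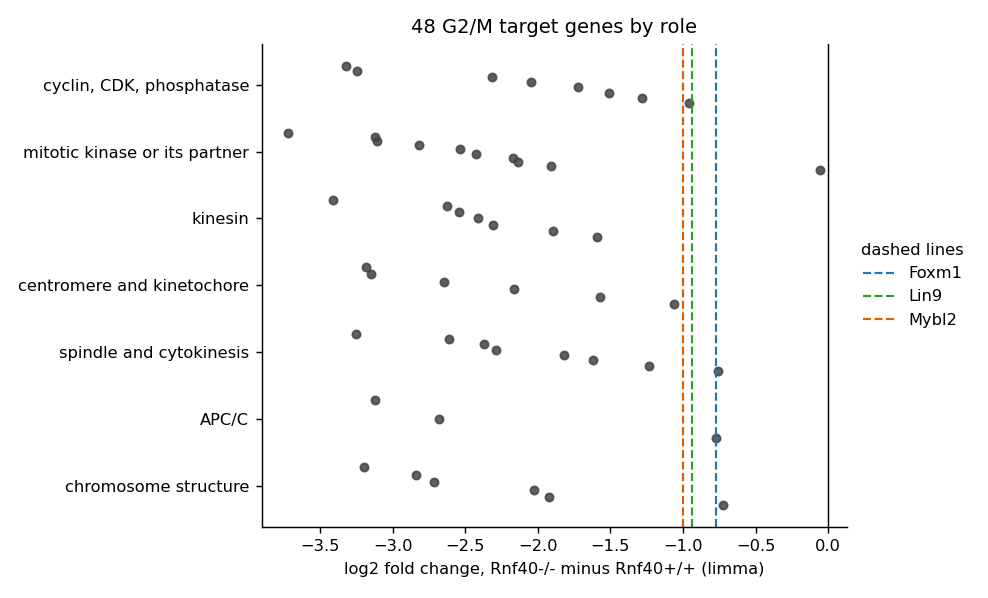
Log2 fold change (horizontal axis, Rnf40-/- minus Rnf40+/+, limma) of the 48 G2/M target genes, 1 point per gene, in rows by role, with dashed lines at the values of Foxm1, Mybl2 and Lin9. Most points lie to the left of all 3 lines, and the point near 0 in the row of mitotic kinases is Bora.

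DREAM also binds genes of DNA replication through E2F sites. Of 18 genes listed as such, 17 (94.4%) were lower, beside 24.1% of all genes tested, and none was higher, beside 23.3%. This list, called replication genes here, was drawn broadly and also holds E2f1 (-0.997), Slbp (-0.81) and Ung (-1.46). The median log2 fold change was -1.18, and the helicase subunits Mcm3 (-2.51), Mcm2 (-2.32) and Mcm5 (-2.28) were lowest. Tyms, which encodes thymidylate synthase, was not called (0.11, adjusted p = 0.441, limma). Of the 18 genes 13 had a lower log2 fold change than Foxm1, 10 than Mybl2 and 12 than Lin9. The values of the replication genes thus lay on both sides of those of Mybl2 and Lin9, where those of the G2/M targets lay mostly below them.

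The promoters of the targets were read with the letters used for Mybl2 and Lin37. Of the 48 G2/M targets 38 had a promoter among those used, with 41 promoters in all. Cdc25c, Kif20a and Lmnb1 lie on chromosome 18, whose promoters were left out. A CHR was present in 80.5% of the 41 and in 19.2% of all promoters, and a CCAAT box in 85.4% and 37.4%. Both were present in 70.7% of the target promoters, among them Ccnb2 and Cdc20 above, and in 7.53% of all promoters. For the E2F core the shares were 29.3% and 11.3%, and for the forkhead core 14.6% and 13.4%. Of the 16 promoters of replication genes 18.8% held a CHR, 68.8% a CCAAT box, 25.0% an E2F core and 6.25% a forkhead core, so these letters of the E2F core were no more frequent in them than in the G2/M targets. Many of the listed targets are known for a CHR, so its share in them is partly set by the choice of the list.

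**Figure D5:**
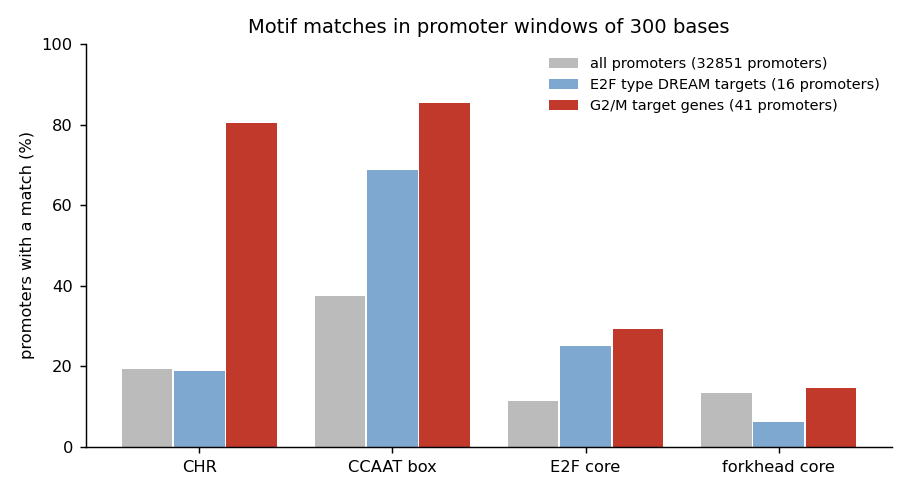
Share of promoters with at least 1 match (vertical axis, %) to the CHR, the CCAAT box, the E2F core and the forkhead core, for all 32851 promoters used (grey), 16 promoters of replication genes (blue) and 41 promoters of G2/M targets (red). The CHR share is 80.5% in G2/M targets, 18.8% in replication genes and 19.2% in all promoters.

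The 31 targets with a CHR had a median log2 fold change of -2.42 and the 7 without one, among them Ccnb1 and Nusap1, a median of -2.17, and their ranges overlapped (-3.41 to -0.77 and -3.25 to -0.76). Among the 9999 tested genes with a promoter among those used, 26.5% were lower. The share was 30.3% among 1642 genes with a CHR and 34.6% among 679 with a CHR and a CCAAT box, or 32.0% when the listed targets were left out. It was 29.7% among genes with an E2F core, 28.1% among those with a CCAAT box and 24.0% among those with a forkhead core. The median log2 fold change of genes with both was -0.07 beside -0.01 for all with a promoter. No test was made of these shares and medians.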

How the data were processed

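RNA of 3 Rnf40+/+ and 3 Rnf40-/- MEF libraries was analysed from the deposited table. Libraries were made from total RNA with a directional kit. The submitters' processing notes name Bowtie2 (version 2.1.0), DESeq (version 1.14.0) and mm9, and the counting tool is not given in the sources used here. The deposited signal per gene is a normalized count, which the authors made by dividing reads by 1 size factor per library. Dividing by the step between low values gave whole reads for 100% of the values of each library (tolerance 0.01 read). No library repeated another one (chi-square per gene 5.33 to 28.8 within groups).

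Genes were kept by filterByExpr of edgeR (version 4.0.16) on these reads and tested with limma (version 3.58.1; lmFit, then eBayes with trend). The model had genotype as its only term and log2(normalized count + 1) as the response, with Benjamini-Hochberg adjustment. The design named edgeR in case the table held raw counts. The added 1 understates the fold change of low genes. The quasi-likelihood test of edgeR on the recovered reads was an alternative and called 3940 genes lower and 3857 higher. Other alternatives were the Wald test of DESeq2 (version 1.42.0), its size factors, TMM and upper quartile normalization, pseudocounts of 0.1 and 10, a minimum of 10 reads per library, no gene filter, a replicate block and each library left out. The scripts were tested on simulated data. Median log2 fold changes of all genes under the other scalings lay between -0.0047 and 0.0016.

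The members and lists were chosen with earlier results of these data known, and the lists were written from general knowledge. Named were all 7 members, every gene of the lists of subunits, relatives and regulators, the 2 targets with the largest change in each role (3 for replication) and every target not called. Positions and exons are from GENCODE vM1 on mm9, promoters from RefSeq without those on chromosome 18, and shared stretches from BLAST (version 2.17.0). R (version 4.3.3) and Python (version 3.11.15) were used.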

Additional observations from a re-analysis of the deposited data

How the results depend on the processing

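The calls of Foxm1, Mybl2 and Lin9 as lower, and the absence of a call for the other 4 members, held in all alternative fits. When single libraries were omitted, log2 fold changes ran from -0.13 to 0.10 for Mybl1, from -0.077 to 0.078 for Lin52, from -0.18 to 0.0061 for Lin54, from -0.013 to 0.13 for Tfdp2 and from -0.16 to 0.0021 for Bora (6720463M24Rik), so that the sign of these uncalled values is not fixed by the data. Over the same fits the median of the other DREAM subunits ran from -0.21 to -0.12, that of the regulators from -0.80 to -0.69 and that of the G2/M targets from -2.51 to -2.26, and the regulators called higher numbered 1 to 2. The G2/M median was -2.08 with a pseudocount of 10 and -2.17 with at least 10 reads in every library, where fewer targets were tested. Replicate numbers are shared between the groups, but the deviations of libraries with the same number were hardly correlated (r of 0.01, 0.02 and 0.02). With 3 libraries per group this cannot tell whether the numbers pair the libraries. Adding the replicate number to the model called 4196 genes lower and 4021 higher, where the main fit called 3955 and 3809. The SE was then 0.12 for Foxm1, 0.21 for Mybl2 and 0.22 for Lin9, and 0.16, 0.19 and 0.21 in the main fit. A replicate block left 3 members lower and none higher, and Foxm1, Mybl2 and Lin9 at -0.78, -1.002 and -0.94, and moved E2f4 to an adjusted p of 0.05 (limma), just past the threshold. Low read numbers limit Mybl2 and Lin9, which rest on 44 to 157 reads per library. Several targets named first in their roles had fewer reads in the Rnf40-/- libraries. These were Pbk (9, 12 and 12 reads), Cenpa (11, 7 and 12), Sgol1 (16, 12 and 9) and Nusap1 (24, 18 and 10). The size and order of their fold changes are limited by this too.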
